A study of Mus musculus with 12 samples.

Results

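The subunits of the transcription factor AP-1 were followed in mouse tibialis anterior muscle with and without its nerve and with and without the histone variant H2A.Z. The 9 genes are Fos, Fosb, Fosl1, Fosl2, Jun, Junb, Jund, Atf3 and Maff, chosen by symbol from the 31057 genes of the count table, and all 9 were among the 17201 genes with enough counts to be tested. The 12 libraries come from C57BL/6 mice aged 7 weeks, with 3 biological replicates in each of 4 groups. WT mice carry floxed alleles of both H2A.Z genes, H2afz (H2A-Z.1) and H2afv (H2A-Z.2), without Cre. The dKO mice are H2A-Z.1-/- and H2A-Z.2-/- through HSA Cre+, a recombinase under the promoter of human skeletal actin. That promoter works in muscle fibres, so other cells of the muscle are not expected to lose the genes. The left sciatic nerve was cut under ketamine and xylazine anaesthesia 48 h before sampling (denervated). The unoperated other leg gave the innervated muscle. Nerve loss, the operation itself and the side of the body therefore cannot be told apart in comparisons of these legs. The study asked whether H2A.Z is needed for basal transcription and for transcription activated by denervation.

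AP-1 is a dimer of basic leucine zipper (bZIP) proteins that binds the DNA sequence TGANTCA. Jun proteins pair with each other or with Fos proteins, whereas Fos proteins need a Jun partner. Fos and Jun are classic immediate early genes, induced through mitogen-activated protein (MAP) kinases and the serum response factor. Atf3 is a stress-induced member of the ATF/CREB family that also pairs with Jun proteins, and Maff is a small Maf protein without a transactivation domain, known as a partner of Nrf2 (Nfe2l2) and Bach1 at antioxidant genes. In skeletal muscle, AP-1 and Atf3 transcripts are known to respond to exercise, injury and nerve loss.

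The stretch just before the transcription start of such genes often holds the cAMP response element TGACGTCA or a variant of it, which bZIP proteins bind. In RefSeq's promoter table (GRCm38.p6), 8 of the 9 genes were found, all but Fosl1, with 10 starts because Maff has 3. The 250 bases before each start were searched on both strands for TGANTCA, for TGACNTCA and for TGACGT, the last of which overlaps TGACNTCA when N is G. At least 1 of these motifs was present in 5 of the 10 windows, compared with 18.1% of 32851 windows of the same length over all genes. All 5 matches were of the TGACNTCA or TGACGT kind, which occur in 7.49% and 6.47% of all windows. TGANTCA, present in 6.75% of all windows, was in none of the 10. The last 100 bases before these 5 starts are shown to place the motif and its distance from the start in Jun, Atf3, Maff and Fos. Junb and Fosl2, which rose after denervation like Jun, Atf3 and Maff, had no match in their windows. Neither had Fosb and Jund, which like Fos did not pass that test. The RefSeq start of Jund lies apart from the counted gene: its window ends at chr8:70697738, and the counted gene begins at 70698949. The bases next to the counted Jund gene were therefore not searched. The shown stretches are written 5′ to 3′ on the strand of the gene and end at the base before the start, and capitals mark the motif.
Fos: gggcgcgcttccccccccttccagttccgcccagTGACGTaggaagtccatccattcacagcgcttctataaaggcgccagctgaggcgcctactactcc
Jun: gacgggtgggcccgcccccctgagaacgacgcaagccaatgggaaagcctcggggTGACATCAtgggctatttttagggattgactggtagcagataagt
Atf3: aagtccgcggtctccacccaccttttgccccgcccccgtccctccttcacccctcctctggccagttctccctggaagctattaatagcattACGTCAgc
Maff, start 2: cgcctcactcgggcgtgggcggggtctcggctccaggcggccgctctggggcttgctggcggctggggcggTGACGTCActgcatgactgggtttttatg
Maff, start 3: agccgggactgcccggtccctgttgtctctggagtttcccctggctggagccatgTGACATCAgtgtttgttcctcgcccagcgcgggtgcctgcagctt
The stretches lie at chr12:85473790-85473889 (plus strand) for Fos, chr4:95052223-95052322 (minus strand) for Jun, chr1:191183334-191183433 (minus strand) for Atf3, and chr15:79347420-79347519 and chr15:79348302-79348401 (plus strand) for Maff. The match began 66 bases before the start in Fos, 45 in Jun and in the third start of Maff, 29 in the second start of Maff and 8 in Atf3, where it reads ACGTCA because it is on the other strand. The E-box CAGCTG, found in 13% of all windows, was in the windows of Fos, Junb and Jund. The CArG box, which the serum response factor binds, was in 1.47% of all windows and in none of these 10. Bases farther than 250 from the start were not searched, so this does not show that the genes lack such a site. A match is a description of the letters, and no binding was measured.

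The libraries held 55668606 to 87753152 counts, so that 3 counts correspond to 0.0315 to 0.0549 CPM (counts relative to library size, corrected for composition). H2afv was lower in dKO than in WT in innervated legs by a log2 ratio of −1.96 ± 0.12 (SE, edgeR adjusted p = 8.89e-06) and in denervated legs by −2.05 ± 0.12 (edgeR adjusted p = 5.23e-06). For H2afz the values were −0.69 ± 0.19 (edgeR adjusted p = 0.175) and −0.57 ± 0.19 (edgeR adjusted p = 0.287). The labelled tissue fits its markers, since 10 muscle fibre genes together took 266000 to 334000 CPM in WT innervated legs. In whole muscle, fewer cells of a type and less RNA per cell cannot be told apart. In 2 libraries, dKO innervated replicate 1 and WT denervated replicate 2, GC-rich genes were low: the correlation of the deviation from the group mean with GC content across genes was −0.381 and −0.523, against −0.202 to 0.348 in the other 10. This touches the GC-rich genes Junb (62.6% GC) and Jund (67.1% GC), whose results are given with and without these libraries.

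After denervation 6 of the 9 genes rose in WT and the same 6 rose in dKO: Jun, Junb, Fosl1, Fosl2, Atf3 and Maff. Of all tested genes 44% changed in WT and 42% in dKO, and 23.1% and 21.9% rose. A changed gene is therefore common in this comparison, and the members' count of 6 of 9 in the upward direction is read against those shares. The members were chosen with earlier results of these data known, so setting their count beside the shares is a description and not a test. None fell, and Fos, Fosb and Jund did not pass the test in either genotype. Rose and fell mean an adjusted p under 0.05 in the quasi-likelihood test of edgeR, with p-values adjusted after Benjamini and Hochberg over all 17201 genes. The median log2 change of the 9 genes was 1.84 in WT and 2.01 in dKO, beside 0 and −0.03 over all genes. For the 6 genes that rose, every denervated library was above every innervated one in each genotype, which holds for 26.4% of all tested genes in WT and 26.6% in dKO, and for the other 3 the libraries overlapped. Scaled by library totals alone, the median of all genes moved to 0.24 and 0.15, and the higher share of all changed genes went from 52.4% to 76.5% in WT and from 52% to 71.6% in dKO. The 6 genes rose under that scaling too, and Fos in dKO passed with them, at 0.86 (edgeR adjusted p = 0.0404).

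**Figure D1:**
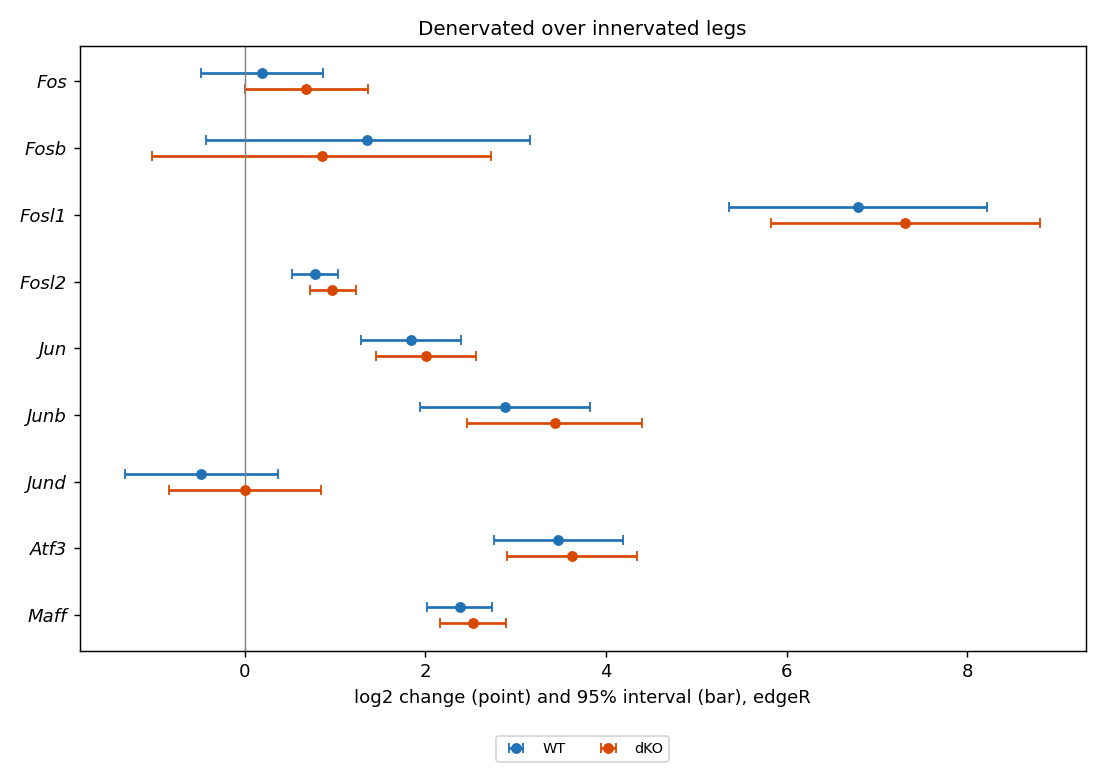
Log2 change of each gene in denervated over innervated legs, by edgeR, with WT in blue and dKO in orange, and bars for the 95% interval of the fit (3 libraries per group). Fosl1 lies farthest to the right, Jun, Junb, Atf3, Maff and Fosl2 lie above 0 in both genotypes, and the intervals of Fosb and Jund include 0 while the lower end of Fos in dKO touches it.

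Markers of other cells are given for the same comparison, in which 44% of all tested genes changed in WT and 42% in dKO. The summed level of 8 neutrophil markers was 3.22 to 3.6 CPM with the nerve and 14.2 to 24.4 CPM without it in WT, and 3.38 to 4.25 and 25.6 to 34 CPM in dKO. This sum follows S100a8, at 0.136 and 16.3 CPM in WT and 0.128 and 26.2 CPM in dKO, the only one of the 4 tested markers to change, while the defining neutrophil genes Ly6g and Ngp were at 0 in both denervated groups. Of 12 macrophage markers 3 rose and 1 fell in WT and 2 rose and 1 fell in dKO, a changed share of 33.3% and 25%, with sums of 158 to 187 and 176 to 214 CPM in WT and 180 to 204 and 189 to 239 CPM in dKO. The lysosomal protein Cd68 rose by 2.01 ± 0.20 in WT (edgeR adjusted p = 4.6e-06) and by 2.31 ± 0.20 in dKO (edgeR adjusted p = 1.53e-06). The 8 satellite cell markers summed to 279 to 295 and 319 to 393 CPM in WT and to 275 to 287 and 340 to 434 CPM in dKO, with 3 rising and 2 falling in WT and 2 and 2 in dKO. Sdc4, a proteoglycan, rose by 2.17 ± 0.18 in WT, while the satellite cell factor Pax7 did not pass the test at −0.30 ± 0.18 (edgeR adjusted p = 0.203). Muscle fibre genes took at most 206000 CPM in WT denervated legs and 196000 to 215000 CPM in dKO, against 282000 CPM in dKO innervated legs, and 7 of 10 fell in WT and 5 of 10 in dKO. Among markers of fibroblasts 5 of 8 fell in each genotype, of endothelium 5 of 8, of mural cells 5 of 6, and of Schwann cells 6 of 8. Of the 4 tested lymphocyte markers none changed. The part of these cells in the results on AP-1 genes was not tested.

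Jun, the founding Jun protein and a strong activator in AP-1 dimers (ENSMUSG00000052684, GRCm38 chromosome 4, 95049034 to 95052222, minus strand), had the highest level of the family. Its CPM in replicates 1, 2 and 3 were 51.5, 41.3 and 53.5 in WT innervated legs and 242, 113 and 169 in WT denervated legs. In dKO they were 36.5, 52.6 and 45.4 in innervated and 162, 238 and 142 in denervated legs. The lowest denervated library, WT replicate 2, was still more than any innervated library. The log2 change was 1.84 ± 0.26 in WT (SE, edgeR adjusted p = 7.57e-05), a fold of 3.58 with a 95% interval of 2.44 to 5.25. In dKO it was 2.01 ± 0.26 (edgeR adjusted p = 3.84e-05), a fold of 4.02 (2.73 to 5.91). Compared by replicate number, log2 CPM rose by between 1.45 and 2.23 in WT and between 1.64 and 2.17 in dKO.

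Junb, which can replace Jun in dimers and is also described as its antagonist at some promoters (ENSMUSG00000052837, chromosome 8, 84974484 to 84978718, minus strand), rose from a lower level than Jun. Its WT CPM were 7.2, 7.12 and 9.71 with the nerve and 78.6, 24.3 and 74.3 after denervation. The dKO CPM were 3.17, 8.41 and 6.3 with the nerve and 86.1, 65.7 and 41 after denervation. The lowest value of the WT denervated group (24.3) and of the dKO innervated group (3.17) came from the 2 libraries low in GC-rich genes, and the nerve states did not overlap. Its log2 change came to 2.88 ± 0.44 in WT (edgeR adjusted p = 0.00015; fold 7.37, interval 3.83 to 14.2) and for dKO legs 3.43 ± 0.45 (edgeR adjusted p = 4.6e-05; fold 10.8, interval 5.5 to 21.1). Without those 2 libraries it was 3.26 and 3.13. Of its exon bases, 173 lie opposite an exon of the peroxidase gene Prdx2, which changed by −0.17 ± 0.08 in WT (edgeR adjusted p = 0.1) and fell by 0.24 ± 0.08 in dKO (edgeR adjusted p = 0.027).

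Jund, the Jun protein that most cells hold at a steady level (ENSMUSG00000071076, chromosome 8, 70698949 to 70700616, plus strand), did not pass the test. Its WT CPM were 20, 13.8 and 18.3 with the nerve and 18.4, 5.1 and 14.1 after denervation. The dKO CPM were 8.07, 19.1 and 14.3 with the nerve and 12.3, 18.5 and 10.7 after denervation. The 2 lowest of these 12 values, 5.1 and 8.07, were those of the 2 libraries low in GC-rich genes, and the groups overlap. On the log2 scale the change was −0.48 ± 0.39 in WT (edgeR adjusted p = 0.355; fold interval 0.4 to 1.29) and for dKO legs 0.01 ± 0.39 (edgeR adjusted p = 0.993; fold interval 0.558 to 1.8). Without the 2 libraries the values were −0.10 and −0.27. With a term for replicate number Jund in WT was called lower, at −0.62 (edgeR adjusted p = 0.0494), and with that term and the GC trend removed it was −0.12 (edgeR adjusted p = 0.284). Opposite 877 of its exon bases lies the gene Gm11175, with 1 to 21 counts per library and no call. Reads of overlapping genes can be told apart only where counting used the strand, which is not given in the sources used here.

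Fosl1 (Fra-1), a Fos protein without a transactivation domain (ENSMUSG00000024912, chromosome 19, 5447547 to 5455946, plus strand), was close to absent with the nerve and well measured without it. Its WT raw counts were 1, 11 and 1 with the nerve and 747, 357 and 783 after denervation. In dKO they were 6, 0 and 4 in innervated and 397, 737 and 762 in denervated legs. No library of one condition came near the other. The log2 change was 6.79 ± 0.66 in WT (edgeR adjusted p = 3.69e-06), a fold of 111 with an interval of 41.1 to 299, and 7.31 ± 0.69 in dKO (edgeR adjusted p = 2.75e-06), a fold of 159 (57 to 445). The size of the fold rests on 13 counts in WT and 10 in dKO innervated legs: without WT innervated replicate 2, which holds 11 of the 13, the log2 change was 8.91, and without dKO innervated replicate 1 or 2 it was 7.99 or 6.71. Of its exon bases 57.2% lie opposite the gene Ccdc85b. Ccdc85b had 422 to 1253 counts in the innervated libraries where Fosl1 had 0 to 11, and it did not pass the test after denervation (log2 change −0.21 ± 0.35, edgeR adjusted p = 0.678, for WT and −0.04 ± 0.35, edgeR adjusted p = 0.944, for dKO).

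Fosl2 (Fra-2), the related Fos protein (ENSMUSG00000029135, chromosome 5, 32135801 to 32157842, plus strand), rose with little spread between libraries. Its WT CPM were 24.2, 27.2 and 32.1 with the nerve and 44.4, 46.4 and 52.3 after denervation. The dKO CPM were 25.1, 25.7 and 27.1 with the nerve and 59.2, 46.3 and 47.5 after denervation. The nerve states did not overlap in either genotype. Its log2 change came to 0.78 ± 0.12 in WT (edgeR adjusted p = 0.000136; fold 1.72, interval 1.44 to 2.04) and for dKO legs 0.97 ± 0.12 (edgeR adjusted p = 2.21e-05; fold 1.96, interval 1.65 to 2.34). Its SD of deviations from the group means, 0.16 in log2 CPM, was the lowest of the 9 genes, and paired by replicate number the legs differed by 0.71 to 0.88 (WT) and 0.81 to 1.24 (dKO).

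Fos, the prototype immediate early gene (ENSMUSG00000021250, chromosome 12, 85473890 to 85477273, plus strand), did not pass the test at 48 h. Its WT CPM were 4.96, 5.92 and 6.1 with the nerve and 4.45, 6.02 and 8.94 after denervation. The dKO CPM were 3.41, 3.71 and 4.99 with the nerve and 9.41, 3.44 and 6.57 after denervation. The groups overlap in both genotypes, and in dKO replicate 2 stayed at its innervated level. On the log2 scale the change was 0.19 ± 0.31 in WT (edgeR adjusted p = 0.653; fold 1.14, interval 0.719 to 1.82) and for dKO legs 0.68 ± 0.32 (edgeR adjusted p = 0.101; fold 1.61, interval 1 to 2.58). Without WT denervated replicate 3 the WT value was −0.10. The dKO value passed the threshold without dKO denervated replicate 2, at 1.01 (edgeR adjusted p = 0.0103), and without the filter on low counts, at 0.69 (edgeR adjusted p = 0.00751).

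Fosb, whose products include the stable variant known as delta-FosB in brain (ENSMUSG00000003545, chromosome 7, 19302696 to 19310051, minus strand), was among the least abundant members. Its WT raw counts were 23, 10 and 31 with the nerve and 8, 26 and 176 after denervation. The dKO raw counts were 9, 21 and 28 with the nerve and 49, 23 and 51 after denervation. WT denervated replicate 3 holds 176 of the 210 counts of its group. The log2 change was 1.36 ± 0.83 in WT (edgeR adjusted p = 0.209; fold interval 0.741 to 8.91) and for dKO legs 0.86 ± 0.87 (edgeR adjusted p = 0.464; fold interval 0.494 to 6.63). Without WT denervated replicate 3 the WT value turned to −0.74 (edgeR adjusted p = 0.354), and without the filter on low counts the value of 1.36 was called (edgeR adjusted p = 0.0348).

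Atf3 (ENSMUSG00000026628, chromosome 1, 191170296 to 191218039, minus strand) had the highest fold among the members with more than a few innervated counts. Its WT CPM were 4.35, 2.47 and 4.26 with the nerve and 60.8, 29.7 and 33.3 after denervation. The dKO CPM were 4.36, 3.32 and 4.18 with the nerve and 56, 59.9 and 30.1 after denervation. Even the lowest denervated library, WT replicate 2 at 29.7, was above the highest innervated one at 4.36. Its log2 change came to 3.47 ± 0.33 in WT (edgeR adjusted p = 3.12e-06; fold 11.1, interval 6.76 to 18.2) and for dKO legs 3.62 ± 0.33 (edgeR adjusted p = 2.29e-06; fold 12.3, interval 7.49 to 20.2). The RefSeq start whose upstream bases are shown above, with ACGTCA 8 bases before it, lies inside the longer gene of the GENCODE annotation.

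Maff (ENSMUSG00000042622, chromosome 15, 79346621 to 79359076, plus strand) rose in every library. Its WT CPM were 1.62, 1.76 and 1.85 with the nerve and 8.67, 8.11 and 10.5 after denervation. The dKO CPM were 2.06, 1.5 and 1.41 with the nerve and 10.8, 9.95 and 7.99 after denervation. All 6 denervated values exceed the 6 innervated ones. On the log2 scale the change was 2.38 ± 0.17 in WT (edgeR adjusted p = 2.52e-07; fold 5.21, interval 4.05 to 6.7) and for dKO legs 2.53 ± 0.17 (edgeR adjusted p = 1.58e-07; fold 5.76, interval 4.47 to 7.42). These are the lowest adjusted p-values among the 9 genes, and paired by replicate number the legs differed by 2.19 to 2.48 (WT) and 2.38 to 2.7 (dKO).

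**Figure D2:**
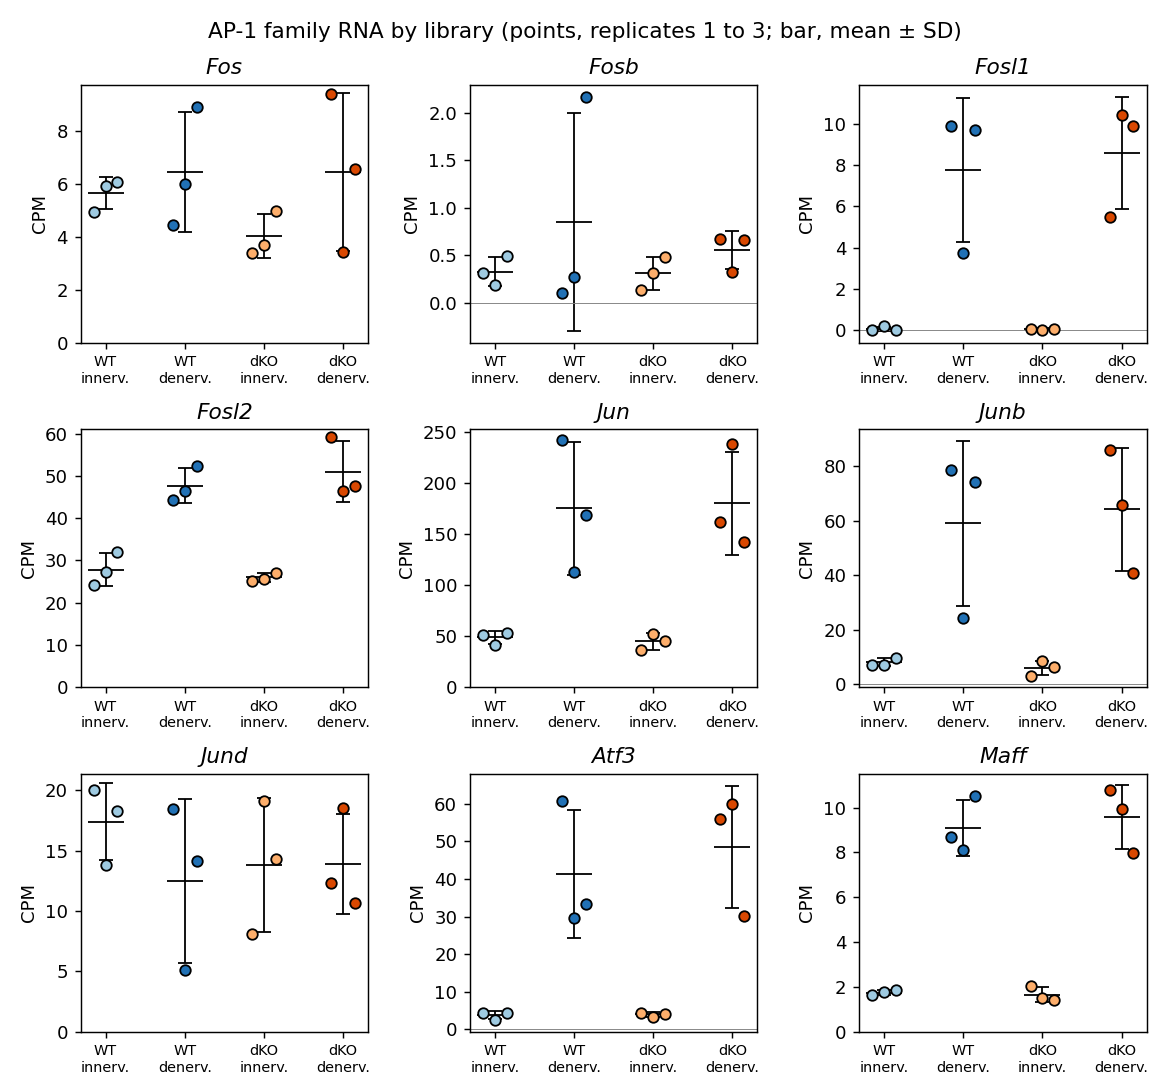
CPM of the 9 genes in each library (points), with the mean and SD of the 3 libraries of each group. Jun, Junb, Fosl1, Fosl2, Atf3 and Maff are separated by nerve state in both genotypes, Fos and Jund overlap, and WT denervated replicate 3 stands apart for Fosb at 2.17 CPM; where the SD exceeds the mean, as in that group, the bar runs below 0.

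Levels of different genes were compared as the authors' normalized counts per kb of gene length, whose definition of length is not stated. The order of the genes depends on that length. Fos and Junb have 2352 and 2301 exon bases in GENCODE. In WT innervated legs Fos was nevertheless below Junb in mean CPM, at 5.66 and 8.01, and above it per kb. In WT innervated legs Jun led with 1360 ± 181 per kb (mean ± SD, n = 3), followed by Jund with 550 ± 101 and Fos with 488 ± 51.2, whose libraries overlap with each other. Fosl2 (334) and Junb (311) overlap likewise, Atf3 (207) and Maff (63.8) came next, and Fosb (6.1) and Fosl1 (3.16) were last and overlap. In dKO innervated legs Jun again led with 1250 ± 229, and each neighbouring pair from Jund (437) through Fos (348), Fosl2 (311) and Junb (232) to Atf3 (222) overlapped.

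After denervation the order was different. In WT, Jun stood at 4870 ± 1880 per kb, Atf3 at 2320 ± 995 and Junb at 2300 ± 1190, with neighbours overlapping, and in dKO Jun at 5080 ± 1480 was above Atf3 at 2760 ± 940, which overlapped Junb at 2520 ± 895. Below them Fosl2, Fos, Jund, Maff and Fosl1 lay between 319 and 570 in WT and between 354 and 617 in dKO, each overlapping its neighbour. Fosb was last in both, at 15.8 and 10.4. Fosl1, which had been at the bottom with Fosb, thus stood at 319 ± 145 in WT and 356 ± 113 in dKO.

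Within each family the mix of transcripts per kb was therefore not the same in the 2 nerve states, given here as a description without a test. The size of each share, and of the ratio between the families, depends on the lengths used. Jund made up 24.7 ± 1.99% of the Jun family's per-kb signal of WT innervated legs and 4.98 ± 1.04% of WT denervated legs, and 22.1 ± 3.51% and 5.5 ± 0.679% in dKO. Junb made up 14 ± 1.87% and 29.2 ± 6.9% in WT, and 11.7 ± 2.48% and 31.3 ± 8.1% in dKO. The share of Jun itself was 61.2 ± 0.321% and 65.8 ± 7.78% in WT and 66.2 ± 6.01% and 63.2 ± 7.4% in dKO, with overlapping libraries.

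In the Fos family Fosl1 made up 0.374 ± 0.522% of the per-kb signal of WT innervated legs and 21.6 ± 9.1% of that of WT denervated legs, and 0.328 ± 0.31% and 24.1 ± 10.4% in dKO. The share of Fos was 58.8 ± 1.47% and 37.7 ± 7.51% in WT and 51.8 ± 3.8% and 35.2 ± 11.5% in dKO, and that of Fosl2 was 40.1 ± 1.65% and 39.8 ± 5.46% in WT and 47.1 ± 4.1% and 40.1 ± 3.26% in dKO. The summed Jun family over the summed Fos family was 2.7 ± 0.521 for WT innervated legs and 5.22 ± 2.32 for WT denervated ones, and 2.89 ± 0.792 and 5.36 ± 2 in dKO. Paired by replicate number the ratio was higher in the denervated leg in all 6 pairs, at 3.24 and 7.85, 2.2 and 3.45, and 2.66 and 4.37 in WT, and 2.31 and 4.69, 3.79 and 7.6, and 2.56 and 3.78 in dKO.

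**Figure D3:**
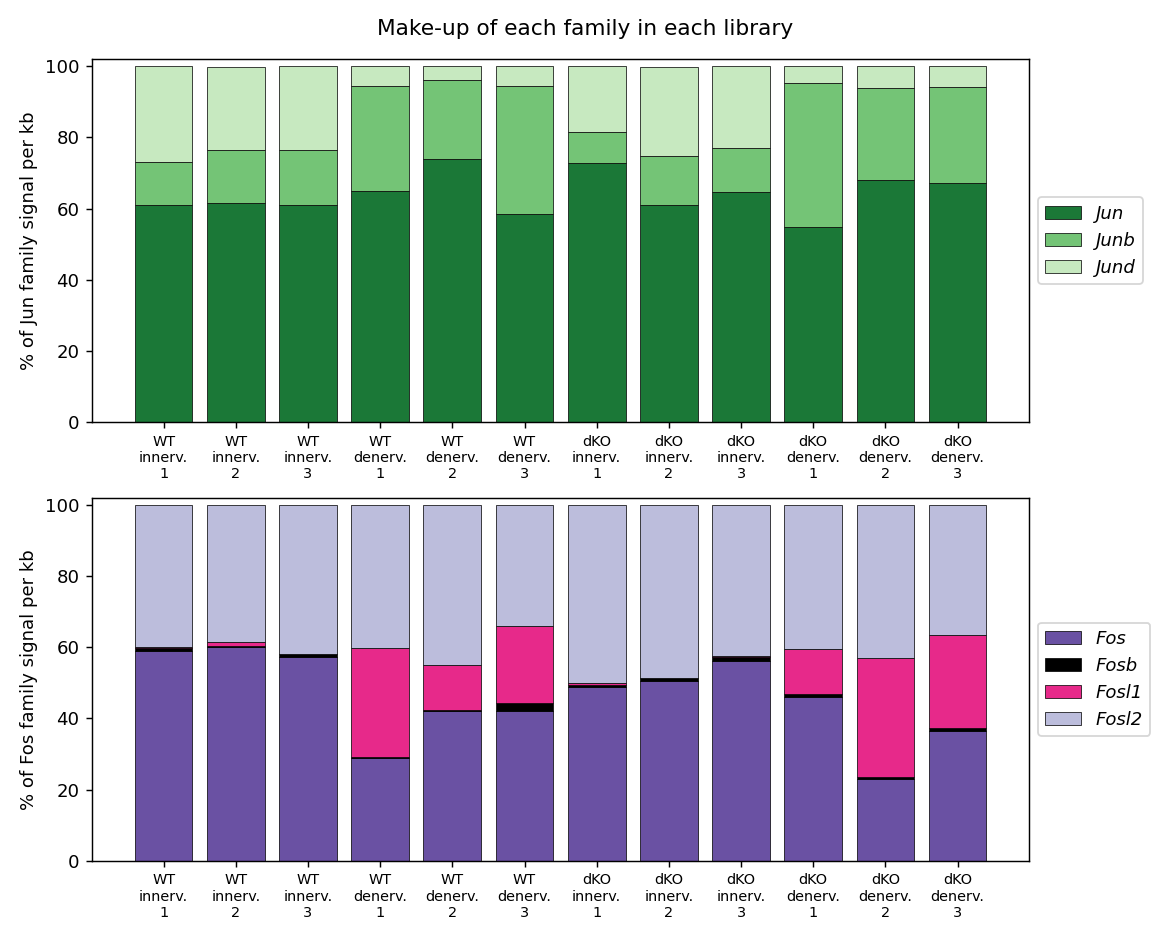
Share of each gene in the per-kb signal of its family, in percent, for the Jun family and the Fos family, with 1 bar per library. Jund takes 18.3 to 27% of the Jun family in innervated and 3.78 to 6% in denervated libraries, and Fosl1 takes 12.5 to 33.3% of the Fos family in denervated libraries.

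Between genotypes none of the 9 genes passed the test, in innervated or in denervated legs. Over all genes 0.459% changed between genotypes in innervated and 0.36% in denervated legs, and 0 of 9 members lies near that background. The count was 0 of 9 by DESeq2 and at an unadjusted p under 0.05 as well, and the lowest edgeR adjusted p was 0.625 in innervated and 0.879 in denervated legs. In innervated legs the level in dKO over WT was bounded most closely for Fosl2, with a fold interval of 0.784 to 1.11, and Maff, with 0.733 to 1.24. The interval was 0.633 to 1.34 for Jun, 0.651 to 1.73 for Atf3, 0.443 to 1.15 for Fos, 0.39 to 1.42 for Junb and 0.442 to 1.43 for Jund. For the genes with few counts it was wide, at 0.234 to 3.71 for Fosb and 0.113 to 5.26 for Fosl1.

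In denervated legs Fosl1 was better measured, and its level in dKO over WT had a fold of 1.11 with an interval of 0.608 to 2.02. The interval was 0.899 to 1.27 for Fosl2, 0.839 to 1.32 for Maff, 0.713 to 1.49 for Jun and 0.763 to 1.82 for Atf3. It was 0.599 to 1.98 for Junb, 0.618 to 1.99 for Jund, 0.631 to 1.59 for Fos and 0.205 to 2.09 for Fosb. For every gene the libraries of WT and dKO overlapped in both nerve states. Groups that do not overlap make up 17.1% of all tested genes in innervated and 14% in denervated legs. A test that is not passed does not show equal levels. The values of the genes with few counts rest on single libraries: on the log2 scale Fosb in denervated legs went from −0.61 to 1.51 without WT denervated replicate 3, beyond the interval above. Fosl1 in innervated legs went from −0.38 to 1.74 without WT innervated replicate 2, to −1.05 without dKO innervated replicate 1 and to 0.23 without dKO innervated replicate 2.

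**Figure D4:**
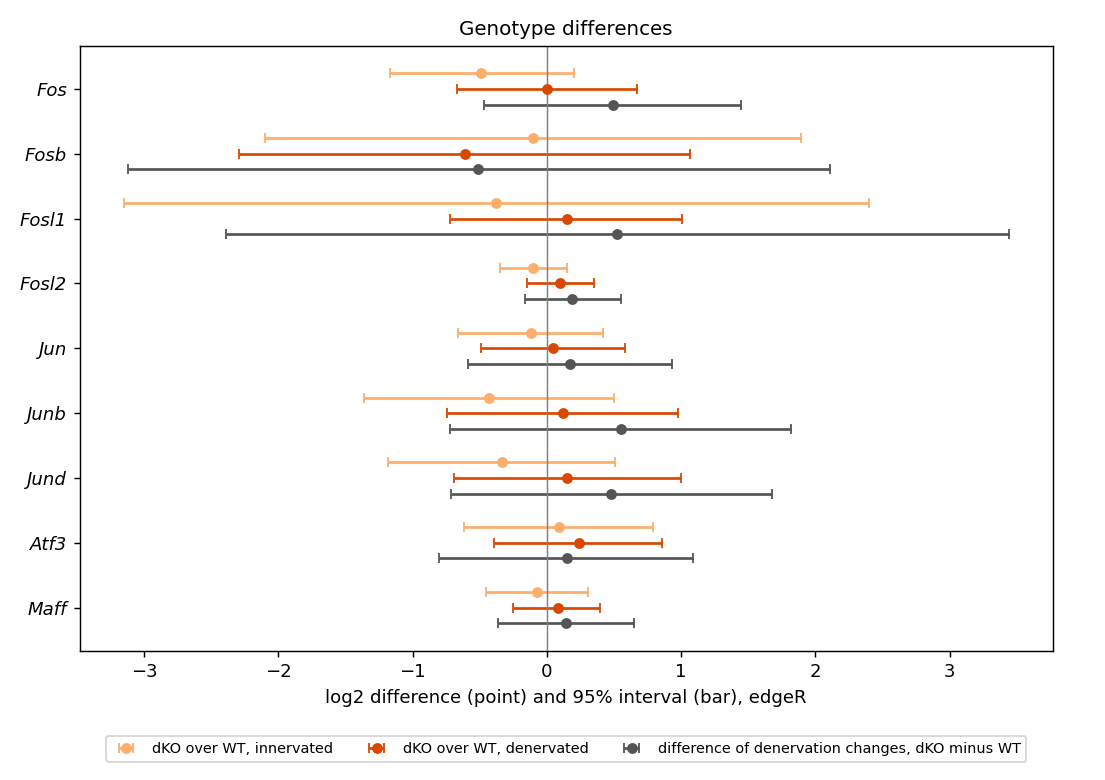
Log2 ratio of dKO over WT for each gene in innervated and in denervated legs, and the difference between the denervation changes of dKO and WT (interaction), with bars for the 95% interval of the edgeR fit. All intervals include 0; Fosl2 and Maff have the shortest bars, and Fosb and Fosl1 the longest.

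The difference between the denervation changes of dKO and WT was tested as an interaction. It passed for none of the 9 genes and for 0% of the 17201 tested, with 374 genes at an unadjusted p under 0.05 by edgeR, none of them a member, and 0 calls by DESeq2. The interaction was 0.14 ± 0.23 for Maff, 0.17 ± 0.35 for Jun, 0.19 ± 0.16 for Fosl2 and 0.15 ± 0.44 for Atf3 on the log2 scale. It was 0.55 ± 0.59 for Junb, 0.48 ± 0.55 for Jund, 0.49 ± 0.44 for Fos, −0.51 ± 1.21 for Fosb and 0.52 ± 1.35 for Fosl1. The direction of the last 2 turned when a library was left out, to 1.62 for Fosb without WT denervated replicate 3, and for Fosl1 to −1.59 without WT innervated replicate 2 and −0.08 without dKO innervated replicate 2. Without dKO innervated replicate 1 the Fosl1 value was 1.20. Jun and Atf3 turned too, with lowest values of −0.073 and −0.033 over the left-out libraries. Over all alternatives the lowest value for Jun was −0.195. Without the 2 libraries low in GC-rich genes the interaction was −0.13 for Junb, −0.17 for Jund and −1.30 for Fosb. As a fold, the interval for Jun ran from 0.664 to 1.9, for Atf3 from 0.576 to 2.14 and for Fosl1 from 0.19 to 10.9.

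Within groups some of the genes varied together. Deviations of log2 CPM from the group mean over the 12 libraries gave Pearson's r of 0.94 for Jun and Jund, 0.88 for Junb and Jund, 0.77 for Jun and Junb and 0.69 for Jun and Atf3. Fos went with Fosl2 (r = 0.76) and Fosb (r = 0.73), and its r with Jun was −0.46. Over the 12 libraries the highest r with another member was 0.24 for Fosl1 and 0.41 for Maff. For Fosl1 this includes innervated libraries with 0 to 11 counts, where its deviations ran from −1.29 to 1.62. Its low r therefore does not show that Fosl1 varies apart from the other members. All r given here are descriptions that share libraries and depth. Part of the spread followed GC content: with each library's GC trend removed, the SD of the deviations went from 0.63 to 0.27 for Jund, from 0.67 to 0.47 for Junb and from 0.38 to 0.33 for Jun. The r of Jun and Jund was 0.93 after that step, that of Junb and Jund 0.69 and that of Jun and Junb 0.63, and those of Fos with Fosl2 and Fosb were 0.75 and 0.73.

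**Figure D5:**
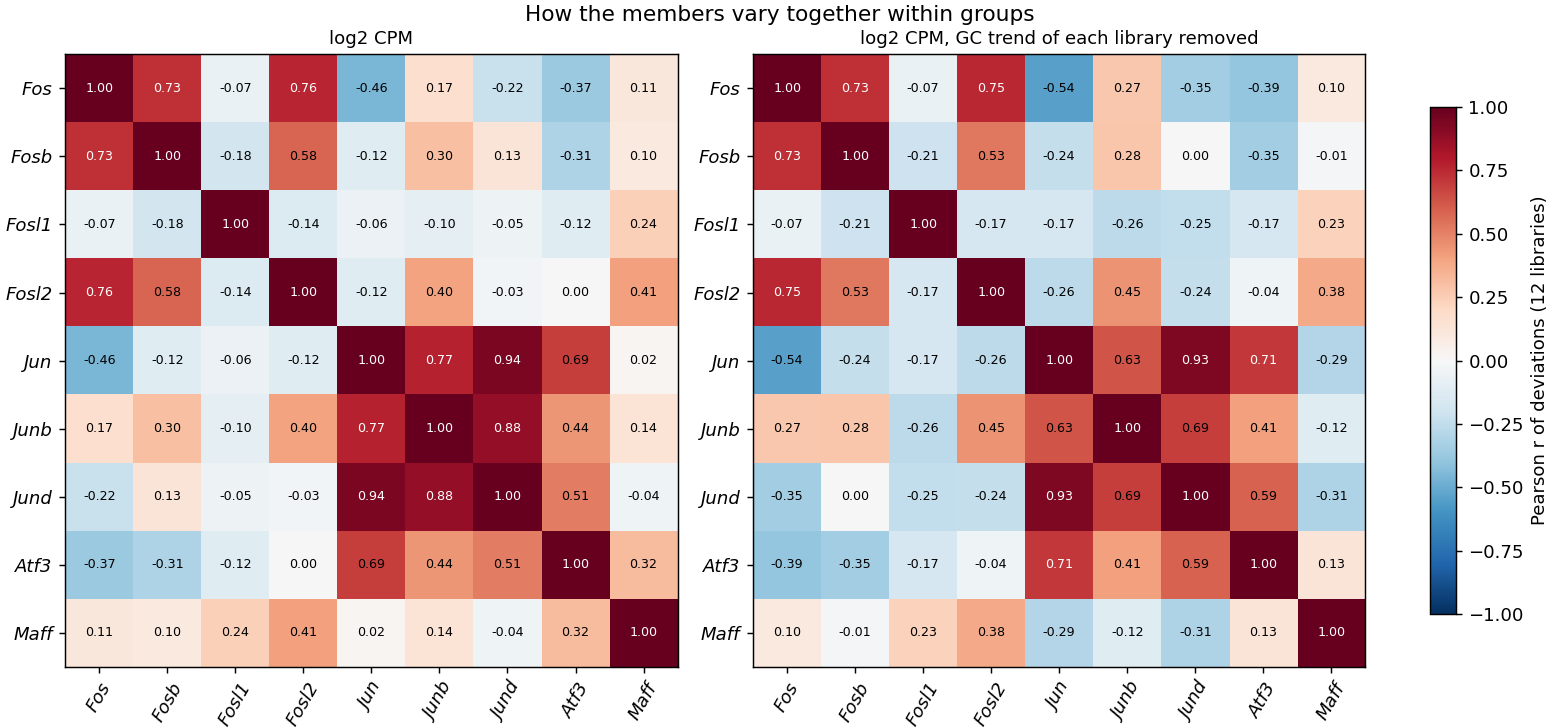
Pearson's r between the 9 genes of their deviations from the group means over the 12 libraries, before (left) and after (right) removal of each library's GC trend. Jun, Junb and Jund form a block of 0.77 to 0.94 on the left and 0.63 to 0.93 on the right, and Fos, Fosb and Fosl2 form another.

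For each gene the genes with the most similar log2 CPM over the 12 libraries were ranked by Pearson's r, over genes whose mean reached 1 CPM. Nearest to Jun was Wdr4 (r = 0.995), to Maff the histone deacetylase Hdac4 (r = 0.994) and to Atf3 the cytokine receptor Tnfrsf12a (r = 0.993). Nearest to Fosl1 was the translation factor Eif3b (r = 0.991), to Junb the RNA polymerase subunit Polr2e (r = 0.987) and to Fosl2 Litaf (r = 0.982). The nearest gene was less close for Fos, Thbd with r = 0.826, and for Fosb, Fblim1 with r = 0.844. For Jund it was Dohh (r = 0.987), and by deviations from the group means it was Hspbp1 (r = 0.993). The GC trend of the libraries was not removed here, and its removal took the SD of Jund's deviations from 0.63 to 0.27. Whether the nearest genes of Jund share that trend was not tested. By such deviations the nearest to Jun was Zfp516 (r = 0.991), to Junb Necap2 (r = 0.987), to Maff Chka (r = 0.977) and to Atf3 the actin-binding Xirp1 (r = 0.971). For the genes that rose, the r of log2 CPM is set largely by the 2 nerve states that the libraries share.

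Of 31 tested MAP kinase pathway and serum response factor genes, which lie upstream of Fos and Jun induction, 6 rose and 9 fell in WT and 7 rose and 9 fell in dKO, with a median change of −0.04 in each. The changed share was 48.4% and 51.6%, near the 44% and 42% of all tested genes. This list and those that follow were chosen with earlier results of these data known, so their shares are descriptions and not tests. Map2k6, a kinase that activates p38, fell by 2.57 ± 0.29 in WT and by 3.00 ± 0.30 in dKO, and Mkl1, a coactivator of the serum response factor, fell by 2.22 ± 0.14 and 2.02 ± 0.14. Mapk10, the JNK isoform known from neurons, fell by 1.36 ± 0.29 and 1.55 ± 0.31, and Map3k14, the NF-kappa-B inducing kinase, rose by 1.93 ± 0.24 and 2.13 ± 0.24. Their edgeR adjusted p-values were between 1.22e-07 and 0.00212.

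The MAP kinase phosphatases, which switch these kinases off, changed without exception, 4 of 10 rising and 6 falling in each genotype, beside 44% and 42% changed over all genes. Dusp4 went from 2.53 to 28.4 CPM in WT and from 2.12 to 24.6 CPM in dKO, a rise of 3.49 ± 0.18 and 3.53 ± 0.19 (edgeR adjusted p = 2.42e-08 and 2.21e-08). Dusp5, a nuclear phosphatase of ERK, rose by 3.87 ± 0.22 and 4.23 ± 0.22, and Dusp9 by 4.96 ± 0.61 and 4.74 ± 0.62 from 0.0585 and 0.052 CPM. Dusp10, which acts on JNK and p38, fell by 2.17 ± 0.28 and 1.92 ± 0.28.

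Among 27 tested bZIP partners outside the 9 genes, 8 rose and 9 fell in WT and 9 rose and 7 fell in dKO, with medians of 0.18 and 0.09 and a changed share of 63% and 59.3% beside 44% and 42% over all genes. The small Maf gene Mafk rose from 24.8 to 98.6 CPM in WT and from 23.9 to 107 CPM in dKO, a change of 1.99 ± 0.21 and 2.16 ± 0.21 (edgeR adjusted p = 8.04e-06 and 4.27e-06). Nfe2l2 (Nrf2), the activator that small Maf proteins bind, rose by 1.70 ± 0.10 and 1.60 ± 0.10. The large Maf gene Mafa fell by 2.10 ± 0.42 and 1.40 ± 0.43, and Ddit3 (CHOP), a stress-induced bZIP protein, fell by 1.88 ± 0.26 and 1.51 ± 0.25.

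Of 12 antioxidant genes known as targets of Nrf2 with small Maf proteins, 11 rose and none fell in each genotype, with a median of 1.65 in WT and 1.70 in dKO, where 23.1% and 21.9% of all genes rose. Sulfiredoxin (Srxn1) went from 25.5 to 622 CPM in WT and from 33.4 to 642 CPM in dKO, a rise of 4.61 ± 0.24 and 4.26 ± 0.23 (edgeR adjusted p = 1.91e-08 and 2.84e-08). Heme oxygenase (Hmox1) rose by 4.37 ± 0.83 and 3.78 ± 0.81, thioredoxin reductase (Txnrd1) by 2.67 ± 0.17 and 2.66 ± 0.17, and the autophagy receptor Sqstm1 by 2.00 ± 0.16 and 1.98 ± 0.16. The 1 gene that did not pass, named here after its values were seen, was the glutathione transferase Gsta3, at 0.77 ± 0.36 in WT and 0.13 ± 0.35 in dKO.

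Of 28 tested genes known as AP-1 targets in other cells, 16 rose and 2 fell in WT and 16 rose and 1 fell in dKO. The medians were 1 and 1.03, beside 23.1% and 21.9% of all genes rising. Because the list was chosen with earlier results of these data known, its count does not test whether AP-1 targets rise more often than other genes. The keratins Krt18 and Krt8 led: Krt18 went from 0.653 to 99.9 CPM in WT and from 0.306 to 95.8 CPM in dKO, a rise of 7.27 ± 0.37 and 8.30 ± 0.40 (edgeR adjusted p = 1.91e-08 and 1.18e-08). Krt8 rose by 6.79 ± 0.54 and 7.17 ± 0.57, and Hmox1, which this list shares with the antioxidant genes, is given above. Sprr1a was called at 0.152 and 0.235 CPM in denervated legs but had 0.00524 and 0.00992 CPM in innervated legs, under the level of 3 counts, so that its fold is not given.

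Among 12 genes of the Atf4 stress response that Atf3 belongs to, 7 rose and 1 fell in WT and 8 rose and 1 fell in dKO, with medians of 1.01 and 1.07, beside the same background. Ppp1r15a (GADD34), a phosphatase subunit that restores translation after stress, rose by 1.98 ± 0.15 and 1.99 ± 0.15 (edgeR adjusted p = 6.03e-07 and 5.78e-07). The serine synthesis gene Psat1 rose by 1.65 ± 0.13 and 1.22 ± 0.12 and the pseudokinase Trib3 by 1.34 ± 0.26 and 1.50 ± 0.26, whereas Ddit3, listed also with the bZIP partners, was the gene that fell.

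Of 19 tested immediate early genes other than AP-1, 6 rose and 2 fell in WT and 7 rose and 2 fell in dKO, with medians of 0.26 and 0.66. The changed share, 42.1% and 47.4%, was near that of all tested genes (44% and 42%). Myc rose from 3.26 to 22.6 CPM in WT and from 3.21 to 24.3 CPM in dKO, a change of 2.79 ± 0.23 and 2.92 ± 0.23 (edgeR adjusted p = 9.33e-07 and 6.86e-07), and Ier3, an inhibitor of cell death, rose by 1.53 ± 0.36 and 1.84 ± 0.37. The activity-regulated genes Arc and Nr4a1 fell, Arc by 2.44 ± 0.36 and 2.45 ± 0.36 and the nuclear receptor Nr4a1 by 2.29 ± 0.26 and 2.34 ± 0.26. In these 7 lists no gene was called between genotypes or in the interaction.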

How the data were processed

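RNA was measured in 12 tibialis anterior libraries, depleted of ribosomal RNA and strand-specific per the labels' protocols. Named in the submitters' processing notes, without roles, are HTSeq 0.6.1, TopHat2 2.0.14, Bowtie, bcl2fastq 2.17.1.14 and the build mm9; whether counting used the strand is not given in the sources used here. Deposited raw counts per gene, named so per the file headers, served for all tests. The deposited normalized signal per kb, made by the authors with an unstated definition of length per the file headers, served only to compare levels between genes.

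Counts were filtered by group, scaled by TMM and fitted with edgeR 4.0.16 (R 4.3.3, limma 3.58.1) as 4 group means with 8 residual degrees of freedom. The quasi-likelihood test was adjusted by Benjamini-Hochberg over 17201 genes at 0.05, and SE and 95% intervals came from its F statistic. DESeq2 1.42.0, other scalings and filters, a GC correction (lowess, span 0.3) and left-out libraries were alternatives. The procedure was also run on simulated counts, drawn independently with an assumed spread. They held no GC trend and no correlation between legs, so that run does not cover these features of the libraries. Log2 CPM used a prior count of 2. Levels of 3 counts and intervals cover counting error or the spread between libraries only.

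All 9 genes are named, and from each list the at most 4 called genes with the largest change in WT, and the nearest genes by correlation. The members and lists were chosen with earlier results of these data known. Positions, overlaps and GC content (matched for 95.2% of tested genes) come from GENCODE M21 on GRCm38, a later build than mm9, and sequences from RefSeq. No near-identical copy (98% identity over 50% of the length) of a member was found.

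The labels do not say which legs share an animal. Deviations from group means of 12706 genes correlated at 0.271 to 0.459 in WT and 0.197 to 0.508 in dKO between legs of the same replicate number, and at −0.376 to 0.082 and −0.389 to 0.088 between different numbers. All 6 pairs being above 0.1, the numbers were taken to pair the legs where changes are given by replicate number. Deviations cancel within each group, so the values between different numbers are not separate evidence. Whether a shared number marks a shared animal or shared handling of the libraries was not tested. Since the labels do not state this pairing, the main tests did not use it and treated all legs as independent. A term for replicate number was an alternative, with its results given below.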

Additional observations from a re-analysis of the deposited data

How the results depend on the processing

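Over 22 alternatives, 12 of which leave out 1 library, the members called after denervation numbered 6 or 7 in both genotypes, and 0 in the genotype and interaction comparisons. Of 759 alternative values of single members 754 stayed on the same side of the threshold, 5 passed it newly (Jund, Fosb and Fos, given in the report) and none reversed a call. With the replicate number as a block, 7 members were called in WT and 6 in dKO, and 8498 and 8186 of all genes, against 7576 and 7233 without it; the block changed no other call of a member than that of Jund in WT. Fosl1 moved most, from 6.22 to 8.91 in WT and from 6.71 to 7.99 in dKO over the left-out libraries.

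The count of all genes changed between genotypes, 79 in innervated and 62 in denervated legs, depended on the setting, and the cause was not tested. It was 264 and 289 by DESeq2, 240 and 252 without the filter on low counts, 46 and 4 with only the groups compared, and 27 to 52 and 11 to 42 with 1 library left out. It was 50 in innervated legs without dKO innervated replicate 1 and WT denervated replicate 2, 104 in denervated legs with the GC trend removed and no block, and 126 and 143 with the GC trend removed and the replicate block. The interaction gave 0 genes, and 2 without the filter on low counts. The correlations after GC removal were chosen after seeing the data. Depth limits Fosl1 and Fosb, which have 0 to 31 counts in innervated libraries.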
